A study of Homo sapiens with 9 samples.

Results

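The clustered protocadherins are cell-surface proteins of the cadherin superfamily that are encoded by 3 gene arrays lying next to each other on chromosome 5, and 54 of the 59452 rows of the gene table belonged to them. The members were chosen by gene symbol alone (PCDHA1 to PCDHA14 with PCDHAC1 and PCDHAC2, PCDHB1 to PCDHB16, and the PCDHGA, PCDHGB and PCDHGC genes), which gave 16 alpha, 16 beta and 22 gamma genes. PCDHA14 among them is annotated as a pseudogene. The family itself was taken up with earlier results of these libraries known, so no test over the family as a whole is given. In the alpha and gamma arrays each gene has its own promoter and a large variable exon that encodes the extracellular and membrane-spanning parts, and this exon is spliced to 3 constant exons that all genes of the array share and that encode the common end of the cytoplasmic tail. Beta genes have no constant exons. In neurons each cell picks a small set of these promoters, a choice that involves the insulator protein CTCF, cohesin and DNA methylation, and the resulting set of surface proteins gives the cell a homophilic recognition code. In breast and other epithelial tumors the arrays are known mainly as a region of long-range promoter methylation.

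RNA-seq was performed on 9 libraries of MDA-MB-453 cells, a wild-type human breast cancer cell line that the labels call triple-negative, after 48 hours of culture. In 3 libraries the cells were attached and received the vehicle DMSO, in 3 they were held in suspension on poly-HEMA coated plates with vehicle, and in 3 they were held in suspension with AT-0174, a dual inhibitor of the tryptophan-catabolizing enzymes TDO2 and IDO1, at 10 µmol/L. The study describes biological triplicates of this single line, so the spread below is that between cultures of 1 cell line. Suspended against attached vehicle cells addressed loss of anchorage, and AT-0174 against vehicle in suspension addressed inhibition of the enzymes. Total estimated counts were 36649997 to 39931024 in attached, 38426208 to 43366137 in suspended vehicle and 42084202 to 48019126 in AT-0174 libraries. The luminal markers KRT8 (32471.6 to 46127.5 counts) and ERBB2 (37764 to 50812 counts) were abundant, and FOXA1, SPDEF and KRT19 rose in suspension by the edgeR test used below, though KRT19 had an adjusted p of 0.0645 without attached replicate 3 and 0.0778 without suspended vehicle replicate 2, and 0.0574 with counts rebuilt from TPM. The basal keratins KRT5 and KRT14 had at most 3 counts, with the basal factor TP63 at 206 to 266, the leukocyte markers PTPRC, CD3E and CD14 at most 4, and the endothelial markers PECAM1 and CDH5 at most 7. The neuron markers RBFOX3 and SNAP25 were at 0 in every library and SYN1 had at most 5 counts, with MAP2 at 63 to 115 and lower in suspension (not with counts rebuilt from TPM, adjusted p = 0.591 by edgeR), and TUBB3 at 11.7 to 56.1. Of 3 fibroblast markers, COL1A2 and PDGFRB had at most 8 counts, whereas COL1A1 had 4337 to 5789 and was lower in suspension (adjusted p = 0.0669 by edgeR with counts rebuilt from TPM).

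A read from a constant exon can come from any gene of its array, so the estimated count of an alpha or gamma gene is in part a split of shared reads, and these exons are therefore shown with their positions (GRCh38, plus strand). The first 2 constant exons of each array are coding over their whole length, and the third, which carries the end of the coding sequence and the 3′ untranslated region, spans chr5:141009627-141012347 (2721 bases) in alpha and chr5:141510947-141512975 (2029 bases) in gamma. The alpha exons are spliced by 15 of the 16 members and the gamma exons by all 22. Constant exon 1 lies at chr5:140978949-140979007 in alpha and chr5:141494807-141494865 in gamma, and constant exon 2 at chr5:140982475-140982563 and chr5:141505393-141505481.
alpha constant exon 1: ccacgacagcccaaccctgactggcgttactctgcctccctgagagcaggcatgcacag
gamma constant exon 1: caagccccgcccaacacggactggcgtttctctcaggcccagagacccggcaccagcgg
alpha constant exon 2: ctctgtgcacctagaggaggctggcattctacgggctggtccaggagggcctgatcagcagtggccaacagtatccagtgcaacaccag
gamma constant exon 2: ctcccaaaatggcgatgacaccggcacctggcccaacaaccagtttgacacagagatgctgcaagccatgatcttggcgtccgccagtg
Aligned without gaps, constant exon 1 was the same at 39 of 59 positions between the arrays (66.1%), and constant exon 2 at 29 of 89 (32.6%), so a read lying wholly within them names its array but no gene of that array. In the full-length PCDHA10 transcript ENST00000307360, 2725 of 5260 windows of 150 bases (51.8%) were also present in transcripts of another member, and in the PCDHGA10 transcript ENST00000398610 2028 of 4653 (43.6%) were. In the PCDHB2 transcript ENST00000194155 the share was 7.1%, and over the 25 gamma transcripts that hold only a variable exon the median was 0.0%.

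Each array was carried by a few members, and PCDHGA10 and PCDHB2 had the highest TPM of their arrays in all 9 libraries. On the TPM scale, which corrects for transcript length, 11 of 54 members averaged 1 or more over the 9 libraries. PCDHGA10 had the highest level of the family, at 6.88, 6.84 and 5.05 TPM in attached cells, 6.96, 6.66 and 7.45 in suspended vehicle cells and 6.46, 6.39 and 6.48 with AT-0174. This was 59.3% of the summed gamma TPM on average (48.0% to 65.0% across libraries), and with PCDHGB5, at 2.00 to 2.79 TPM, it made up 81.8% (72.4% to 86.9%). The next gamma gene, PCDHGB2, lay at 0.209 to 0.451 TPM, so the ranges of these 3 genes did not overlap. Of the 22 gamma genes, 13 averaged fewer than 10 counts.

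In the beta array PCDHB2 led with 3.55 to 5.26 TPM, or 48.3% of the array (42.2% to 55.3%). PCDHB9 (0.919 to 2.82 TPM) and PCDHB4 (0.776 to 1.78 TPM) followed with ranges that overlapped each other and not that of PCDHB2. The place of PCDHB9 depended on the scale. Its short transcript ENST00000623266 of 498 bases held 0 to 19.5 counts but 0 to 1.96 TPM. By mean counts PCDHB9 (54.7) lay below PCDHB4 (78.8) and PCDHB14 (65.2). The alpha array was shared more evenly, and PCDHA6 (3.94 to 5.82 TPM), PCDHA10 (3.46 to 4.52 TPM) and PCDHA4 (2.96 to 4.70 TPM) together made up 60.8% (54.3% to 67.3%). The ranges of these 3 overlapped, so their order was not resolved, while PCDHA12 (1.82 to 2.41 TPM) and PCDHA5 (1.29 to 2.00 TPM) lay below all of them. PCDHAC2 had the fourth highest mean of the array but ranged from 0.255 to 5.43 TPM, for which its transcripts are described below.

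**Figure D1:**
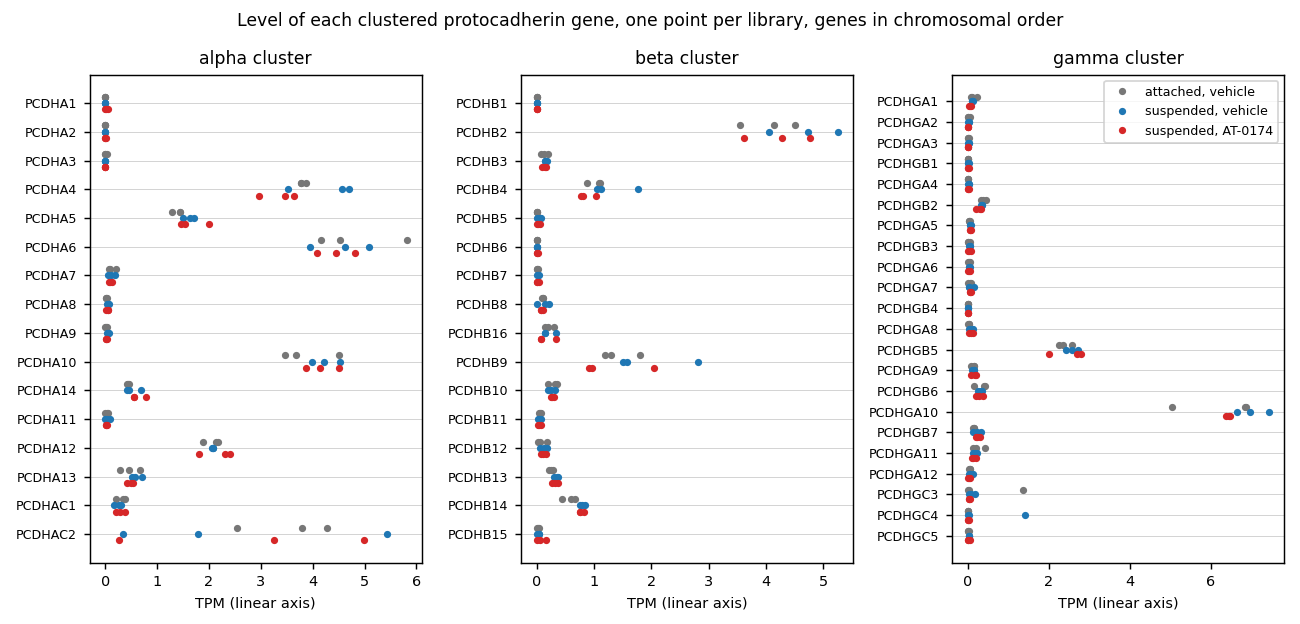
TPM of every member (x axis, linear) in chromosomal order (y axis), with a point for each of the 9 libraries colored by condition. PCDHGA10, PCDHGB5, PCDHB2, PCDHA6, PCDHA10 and PCDHA4 stand out in all conditions, and PCDHAC2, PCDHGC3 and PCDHGC4 show libraries that lie far from the others.

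Many members had few counts. Of the 54 members, 27 averaged fewer than 10 counts, 18 had fewer than 10 in every library, and none was at 0 in all 9. Only 8 averaged 100 counts or more, namely PCDHA4, PCDHA5, PCDHA6, PCDHA10 and PCDHA12 in alpha, PCDHB2 in beta, and PCDHGA10 and PCDHGB5 in gamma. The lowest members by mean TPM were PCDHA2 in alpha (0 to 1.48 counts), PCDHB1 in beta (0 to 3 counts) and PCDHGB4 in gamma (0 to 1.69 counts), values at or under 3 counts, below which absence and a low level cannot be told apart. The C-type genes, which in brain are expressed more evenly among neurons than the others, differed in their gene totals. PCDHAC1 lay at 0.170 to 0.380 TPM and PCDHGC5 at 0 to 0.0611 TPM. PCDHGC3 averaged 0.197 TPM, with 1.37 in attached replicate 3 and at most 0.172 elsewhere. PCDHGC4 averaged 0.165 TPM, with 1.42 in suspended vehicle replicate 3 and at most 0.0387 elsewhere. PCDHAC2, also a C-type gene, averaged 2.96 TPM and 71.6 counts, but its full-length transcript ENST00000289269 lay at only 0 to 0.346 TPM. The 4 pseudogene rows of the arrays (PCDHB17P, PCDHB18P, PCDHB19P and PCDHGB8P) had at most 8 counts. The leaders had neighbors at far lower levels, since PCDHGA10 lies between PCDHGB6 (0.166 to 0.422 TPM) and PCDHGB7 (0.125 to 0.339 TPM), and PCDHA10 follows PCDHA9 (0 to 0.0612 TPM). The gene on the other side of PCDHA10 is PCDHA14 (0.409 to 0.788 TPM), and all 2149 of its 150-base windows were also present in transcripts of another member, so its level is a split of shared reads.

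Promoters of leading and of the lowest members are shown next, because clustered protocadherin promoters are known for a short conserved element whose core reads CGCT. Promoter windows from RefSeq (GRCh38.p14) matched 47 of the 54 members with 52 windows, and the 100 bases before the annotated start are printed with CGCT in capitals. All lie on the plus strand of chromosome 5, at chr5:140827860-140827959 (PCDHA6), chr5:140855797-140855896 (PCDHA10), chr5:141094515-141094614 (PCDHB2), chr5:141412887-141412986 (PCDHGA10), chr5:141397847-141397946 (PCDHGB5), chr5:140794752-140794851 (PCDHA2), chr5:141051274-141051373 (PCDHB1) and chr5:141387598-141387697 (PCDHGB4).
PCDHA6: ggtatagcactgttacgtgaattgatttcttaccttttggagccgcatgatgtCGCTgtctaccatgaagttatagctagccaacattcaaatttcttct
PCDHA10: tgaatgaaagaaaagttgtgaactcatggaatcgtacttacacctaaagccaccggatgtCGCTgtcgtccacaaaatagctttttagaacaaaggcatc
PCDHB2: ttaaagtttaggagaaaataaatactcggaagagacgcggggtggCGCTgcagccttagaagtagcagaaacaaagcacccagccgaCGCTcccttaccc
PCDHGA10: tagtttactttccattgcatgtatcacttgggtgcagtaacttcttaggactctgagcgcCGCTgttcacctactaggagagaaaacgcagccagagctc
PCDHGB5: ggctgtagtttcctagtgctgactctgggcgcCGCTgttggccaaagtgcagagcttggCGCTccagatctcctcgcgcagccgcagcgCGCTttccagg
PCDHA2: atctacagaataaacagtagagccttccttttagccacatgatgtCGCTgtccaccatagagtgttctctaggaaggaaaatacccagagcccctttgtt
PCDHB1: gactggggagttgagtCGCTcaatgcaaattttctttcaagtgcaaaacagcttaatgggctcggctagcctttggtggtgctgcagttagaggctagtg
PCDHGB4: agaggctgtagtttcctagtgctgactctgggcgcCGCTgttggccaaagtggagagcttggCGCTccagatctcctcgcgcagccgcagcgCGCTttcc
Positions are counted backward from the annotated start, the last printed base being -1. PCDHA10 and PCDHGA10 both had CGCT starting at -40 and PCDHA6 at -47. PCDHA4, whose window is not printed, had it at -73. PCDHB2 had copies at -55 and -13. The near-silent PCDHA2 had it at -55 and PCDHB1 at -84. The annotated start of PCDHA10 lies 14 bases downstream of the start in GENCODE 44, so positions depend on the annotation used.

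On the strand of the gene CGCT was present in 44 of 52 member windows of 100 bases (84.6%), against 9822 of 35064 windows of other genes, and on either strand in 88.5% of member windows against 44.7% of the others. Of the 47 members, 44 had at least 1 copy and 33 exactly 1, with a median start of -47.5 for the copy nearest the start. In windows with several copies the nearest need not be the conserved element. For PCDHB2 the copy at -13 was taken and not that at -55. The 3 without a copy were PCDHA9, PCDHB8 and PCDHGB2. The annotated start lay 610 bases for PCDHA9 and 142 bases for PCDHGB2 downstream of that in GENCODE 44, and 0 for PCDHB8. Larger offsets occurred with a copy present, 774 bases for PCDHA11 (CGCT at -58) and 2476 for PCDHGA8 (at -49). Longer forms that were chosen after the windows were seen differed between arrays: TGTCGCT was in 10 of 13 alpha windows, 1 of 14 beta and 3 of 25 gamma windows, and in 0.262% of other windows, whereas GCGCCGCT was in 10 of 25 gamma windows, in no alpha or beta window and in 0.602% of others.

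A pair of near-identical promoter windows belonged to genes at opposite ends of the gamma array's range of levels. The windows of PCDHGB4 and PCDHGB5 were the same at 96 of 97 aligned bases (99.0%) when shifted by 3 bases, the most alike of 1081 pairs (median 34.3%), and both held 3 copies of CGCT. PCDHGB5 lay at 2.00 to 2.79 TPM and PCDHGB4 at 0 to 0.0113 TPM. The full-length transcripts of both genes (ENST00000617380 and ENST00000519479) shared 51.5% of their 150-base windows with other members, and the second transcript of each shared 13.6% (PCDHGB5) and 53.8% (PCDHGB4). The other pair over 80% identical, PCDHGB6 and PCDHGB7 (94.8%), lay at similar levels with overlapping TPM ranges. A match is a description of the sequence, and neither binding nor methylation was measured in these libraries.

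**Figure D2:**
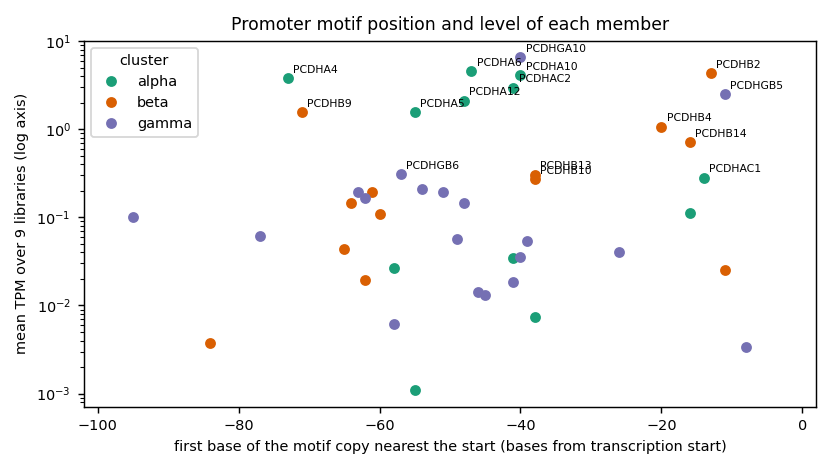
First base of the CGCT copy nearest the start (x axis, bases from the annotated transcription start) against mean TPM over 9 libraries (y axis, log scale) for the 44 members with a copy, colored by array. Genes with copies between -38 and -58 include PCDHGA10 at the top and members under 0.01 TPM, and named points have a mean TPM of 0.25 or more.

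In CPM, the summed output of each array overlapped between the groups of both comparisons. Alpha counts summed to 55.3, 56.0 and 54.5 CPM (scaled by TMM to the reads in each library) for the attached cultures, 57.0, 51.4 and 56.3 for the suspended vehicle cultures and 53.9, 49.0 and 53.7 with AT-0174. Both suspended groups overlapped, as did the attached and suspended vehicle groups, while all AT-0174 values lay below the attached ones, with means ± SD of 55.2 ± 0.743, 54.9 ± 3.06 and 52.2 ± 2.76 (n = 3 each). Beta sums were 15.9 ± 0.973, 17.2 ± 0.874 and 16.3 ± 0.612 CPM, and gamma sums 35.1 ± 1.64, 35.3 ± 1.29 and 33.3 ± 0.840 CPM. The log2 difference of suspended against attached cells was -0.01 for alpha, 0.11 for beta and 0.01 for gamma, and that of AT-0174 against vehicle was -0.07, -0.07 and -0.08. On summed TPM the beta difference in suspension was 0.29 and that with AT-0174 -0.26, beyond the spread of the CPM sums. Beta TPM summed to 7.737 to 8.995 in attached, 9.612 to 11.212 in suspended vehicle and 7.649 to 8.942 in AT-0174 libraries. On that scale the beta groups did not overlap in either comparison. Gamma TPM summed to 11.199 to 13.23 in suspended vehicle and 9.973 to 11.034 in AT-0174 libraries, which did not overlap either. Short transcripts with few counts entered the beta TPM sums. PCDHB2 transcript ENST00000624874 (565 bases) had 0.664 and 0.745 TPM on 7.9 and 8.8 counts in suspended vehicle replicates 2 and 3, and 0 elsewhere. PCDHB9 transcript ENST00000623266 (498 bases) had 1.96 TPM on 19.5 counts in suspended vehicle replicate 2. Their part in the differences was not tested. These sums had no test, and in bulk RNA fewer cells with an active array and less RNA per cell cannot be told apart.

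**Figure D3:**
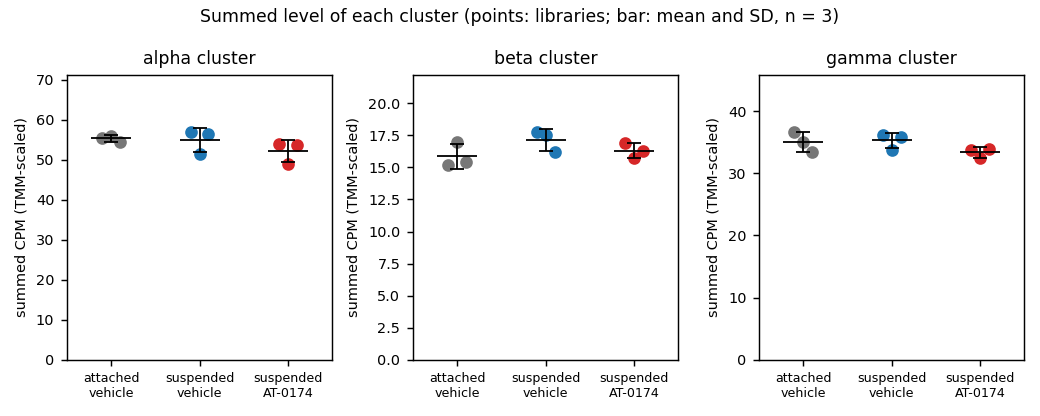
Summed CPM of each array (y axes from 0, a separate scale per array) by condition, with points for libraries and a bar for mean and SD (n = 3). The groups of both comparisons overlap in all 3 arrays, with alpha at 49.0 to 57.0, beta at 15.2 to 17.8 and gamma at 32.4 to 36.7 CPM.

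The alpha and gamma sums held more exactly than the single genes. Within 0.05 counts, these sums were whole numbers of reads in all 9 libraries and the beta sum in 8. Single members were judged at a tighter limit of 0.002 counts, so the 2 tallies are not on the same scale. At that limit 53 of 54 members had a fractional count in at least 1 library and 22 in all 9. Beta sums were 583.03 and 596.97 counts in attached replicates 1 and 3, and 816.97 and 718.41 in AT-0174 replicates 1 and 3. The gamma sum of suspended vehicle replicate 3 was 1579.01. The fractions thus cancelled closely within alpha and gamma and less so within beta, as they do when reads are divided among an array's members. Transcripts with constant exons took a median of 81.8% of alpha counts (77.5% to 85.6%) and 94.8% of gamma counts (92.0% to 96.9%), and transcripts with only a variable exon took 16.1% and 5.24%.

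In suspended against attached vehicle cells, no member passed an adjusted p of 0.05 (edgeR quasi-likelihood test, Benjamini-Hochberg over 15528 genes), and none had an unadjusted p under 0.05. DESeq2 and limma-voom also called 0. A filter that asks for enough reads in at least 3 libraries, whatever their group, left 28 of 54 members (10 alpha, 8 beta, 10 gamma) in the test. Among all genes tested 21.2% passed (1620 higher and 1677 lower in suspension). The log2 fold changes of the 28 members had a median of 0.05 (15 above 0 and 13 below) beside a median of 0.00 over all genes. Their median SE was 0.248 against 0.066 over all genes, so that changes of the size called elsewhere were often not detectable in the members. The CPM ranges of the groups did not overlap for 3 of 28 members (PCDHA13, PCDHB4 and PCDHB14), against 38.1% of all genes tested.

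The 8 members with 100 counts or more allowed narrower limits, with a median SE of 0.101 against 0.248 over the 28 tested members. For the alpha and gamma genes these limits leave out the error from dividing shared reads. PCDHGA10 had 22.9, 22.9 and 17.4 CPM when attached and 22.2, 20.6 and 23.0 CPM when suspended with vehicle. The suspended values lay inside the attached range apart from 23.0, and the log2 fold change was 0.06 (SE 0.088, 95% interval -0.13 to 0.25, adjusted p = 0.692 by edgeR). PCDHA10 went from 13.6, 16.2 and 14.0 to 15.1, 14.8 and 15.8 CPM, a log2 fold change of 0.06 (95% interval -0.09 to 0.22). PCDHB2 had 8.09, 9.50 and 8.11 CPM attached and 8.71, 9.43 and 8.36 CPM suspended, with 0.04 (-0.14 to 0.23). Groups overlapped for each of these leading genes. The other leaders gave -0.02 (PCDHGB5, -0.26 to 0.23), -0.04 (PCDHA6, -0.24 to 0.17) and 0.07 (PCDHA4, -0.17 to 0.31). Over the 8 genes the intervals reached from -0.69 to 0.36, the lower end belonging to PCDHA12 with -0.32 (SE 0.171, adjusted p = 0.212 by edgeR).

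PCDHA12 had 6.45, 7.18 and 8.30 CPM when attached and 7.47, 4.95 and 5.23 CPM when suspended with vehicle, where replicate 1 lay inside the attached range and the other two below it. Without that library PCDHA12 passed the threshold, at a log2 fold change of -0.52 (adjusted p = 0.0454 by edgeR). PCDHB4 had 1.79, 1.73 and 1.83 CPM attached and 2.91, 1.99 and 1.91 CPM suspended, all suspended values being higher, with a log2 fold change of 0.35 (SE 0.183, adjusted p = 0.194 by edgeR). PCDHB14 had 1.38, 1.42 and 1.36 against 1.43, 1.68 and 1.51 CPM and 0.15 (adjusted p = 0.554 by edgeR). The least abundant tested members had wide intervals, from -1.76 to 0.42 for PCDHA7 and from -0.50 to 3.26 for PCDHGA8, and the depth could not show a change there.

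**Figure D4:**
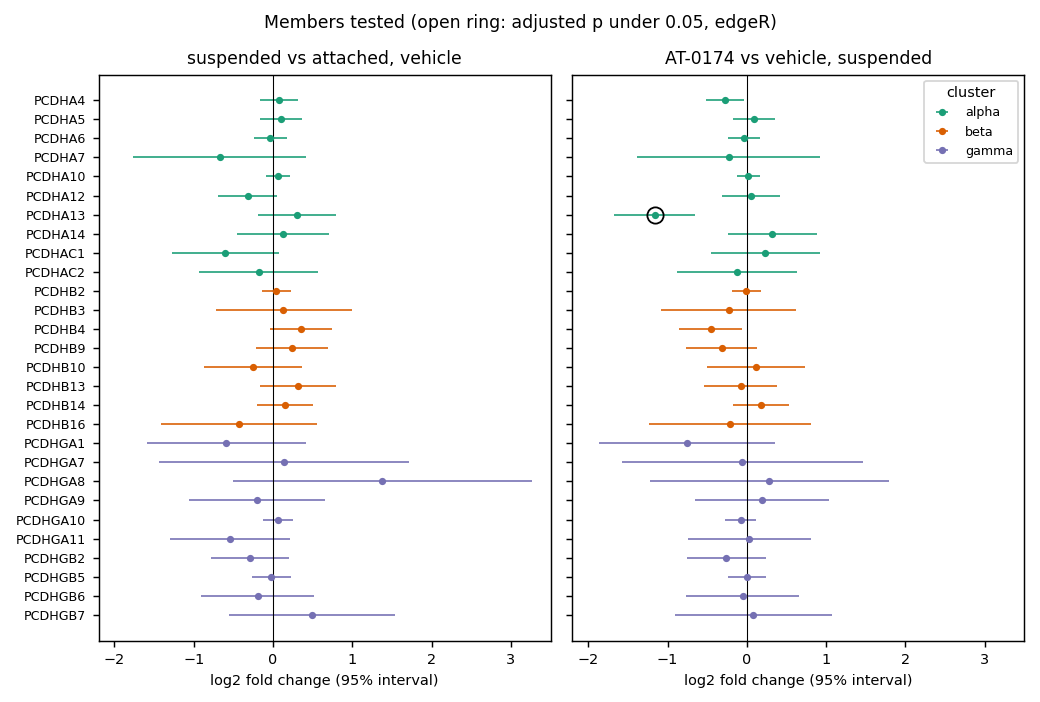
Log2 fold change with its 95% interval (x axes, the same range in both panels) of the 28 tested members in both comparisons, colored by array, with an open ring for an adjusted p under 0.05 by edgeR. The leading members have short intervals around 0, and PCDHA13 with AT-0174 is the sole ringed point.

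With AT-0174 against vehicle in suspension, 1 of 28 members passed, against 0.779% of all genes tested (81 higher and 40 lower), and 3 members had an unadjusted p under 0.05. The median log2 fold change of the members was -0.04 beside 0.00 over all genes. Groups did not overlap for 3 of 28 members (PCDHA13, PCDHB4 and PCDHGA1), against 15.4% of all genes. PCDHGA10 had 22.2, 20.6 and 23.0 CPM with vehicle and 20.4, 21.0 and 20.7 CPM with AT-0174, overlapping groups with a log2 fold change of -0.08 (95% interval -0.27 to 0.11, adjusted p = 0.856 by edgeR). PCDHGB5 gave 0.00 (-0.24 to 0.24), PCDHB2 -0.01 (-0.19 to 0.18), PCDHA10 0.02 (-0.13 to 0.17) and PCDHA6 -0.04 (-0.24 to 0.16). PCDHA4 had 12.4, 9.12 and 12.7 CPM with vehicle and 9.71, 8.60 and 9.80 with AT-0174, with -0.28 (SE 0.109, adjusted p = 0.433 by edgeR). Without suspended vehicle replicate 2, the lowest vehicle library, PCDHA4 had a log2 fold change of -0.43 and an adjusted p of 0.0382 by edgeR. PCDHB4 fell short of the threshold at -0.45 (SE 0.182, adjusted p = 0.461 by edgeR), and its values with AT-0174, 1.76, 1.63 and 1.59 CPM, lay within or below the attached range. PCDHB14 (0.18, -0.17 to 0.53) and PCDHGB2 (-0.26, -0.76 to 0.24) did not pass either.

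PCDHA13, an alpha gene with a mean of 58.7 counts, was the member that passed. Its level was 1.07, 1.75 and 1.80 CPM for attached cultures, 1.88, 1.80 and 2.01 CPM for suspended vehicle cultures and 0.947, 0.946 and 0.644 CPM with AT-0174. All 3 AT-0174 libraries lay below the other 6, and the log2 fold change against suspended vehicle was -1.16 (SE 0.237, 95% interval -1.68 to -0.65, adjusted p = 0.0439 by edgeR). The call rested on each library of the comparison. The adjusted p by edgeR was 0.130, 0.0982 and 0.159 without suspended vehicle replicate 1, 2 or 3, 0.0954, 0.103 and 0.166 without AT-0174 replicate 1, 2 or 3, and 0.0548 without attached replicate 2, while the log2 fold change lay between -1.26 and -0.998 over all leave-outs.

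The transcripts that carried the PCDHA13 counts differed between the groups. The full-length transcript ENST00000289272 (5408 bases, of which 2869 are constant sequence) had 53.2, 79.6 and 88.4 counts in suspended vehicle libraries and 16.4, 5.5 and 0 with AT-0174. The transcript ENST00000617769 (2427 bases, variable exon only) had 19.7, 0 and 0 counts with vehicle and 29.4, 34.1 and 28.4 with AT-0174. Counts on the full-length form were thus lower and counts on the variable-only form higher in every AT-0174 library. Of the 150-base windows, 52.0% of the full-length and 0.6% of the variable-only transcript were shared with other members. Per length the gene had 0.707, 0.515 and 0.575 TPM with vehicle and 0.488, 0.541 and 0.411 TPM with AT-0174, groups that overlapped. With counts rebuilt from TPM the log2 fold change was -0.28 and the adjusted p 0.977 by edgeR. The part of the split of shared reads in the call was not tested.

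In other members, single libraries stood apart in transcripts made up mostly of constant sequence. The full-length PCDHA13 transcript above was itself 53.1% constant sequence, and its variable-only transcript held none. PCDHGC3, a C-type gamma gene, had 86.2 counts in attached replicate 3 and 1.4 to 8.1 in the other 8 libraries. All 86.2 were placed on ENST00000617641, a transcript of 2346 bases with 2177 of constant sequence and 92.4% of its 150-base windows shared, which had 0 counts elsewhere. In that library PCDHGA10 had its lowest value, 675.7 counts against 828.1 to 1009.5 in the other 8, while the gamma sum of 1299 counts lay between those of the other attached libraries, 1265 and 1405. PCDHGC4 had 27.1 counts in suspended vehicle replicate 3, all on a transcript of 812 bases (ENST00000618371) with 698 of constant sequence, and at most 5.43 in any other library. The TPM of PCDHAC2 followed its transcript ENST00000613766 of 550 bases, with 474 of constant sequence. That transcript had 0 counts in suspended vehicle replicate 2 and AT-0174 replicate 1, where PCDHAC2 lay at 0.346 and 0.255 TPM, and 53.4 counts in suspended vehicle replicate 1, where it lay at 5.43 TPM. PCDHAC2 had no call in either comparison (log2 fold change -0.18, -0.94 to 0.57, and -0.12, -0.88 to 0.63).

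**Figure D5:**
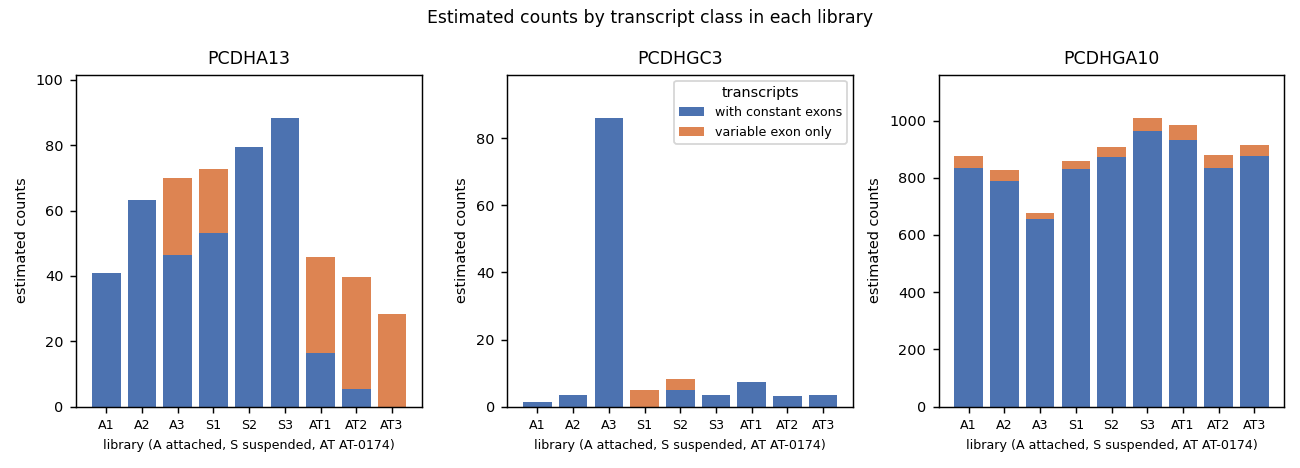
Estimated counts (y axes from 0) of PCDHA13, PCDHGC3 and PCDHGA10 in each library (x axis, A attached vehicle, S suspended vehicle, AT suspended AT-0174), stacked by whether the transcripts hold constant exons. PCDHA13 counts are on variable-only transcripts mainly in the AT libraries, and PCDHGC3 reaches 86.2 counts in A3, where PCDHGA10 is lowest at 675.7.

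The non-clustered protocadherins, which have their own complete genes and no shared exons, were read on the same scale. Of 12 listed, 5 were tested and PCDH10, PCDH12, PCDH15 and PCDH18 were at 0 in every library. PCDH1, which also lies on chromosome 5 and encodes an epithelial adhesion protein, rose in both comparisons. It had 6.42, 7.33 and 6.32 TPM in attached, 8.15, 9.40 and 8.02 TPM in suspended vehicle and 10.7, 10.0 and 10.2 TPM in AT-0174 libraries, 3 ranges that did not overlap. The log2 fold change was 0.23 in suspension (SE 0.064, adjusted p = 0.0258 by edgeR) and 0.38 with AT-0174 (SE 0.061, adjusted p = 0.0105 by edgeR). In suspension the adjusted p by edgeR rose to 0.0862 without attached replicate 1, 0.0892 without attached replicate 3 and 0.108 without suspended vehicle replicate 2, and with AT-0174 to 0.0681 and 0.0723 without suspended vehicle replicate 1 or 3 and 0.0618 without AT-0174 replicate 1. With counts rebuilt from TPM neither call was made, with adjusted p of 0.101 in suspension and 0.382 with AT-0174 by edgeR. PCDH20, at 3.58 to 4.01 TPM, gave -0.06 (adjusted p = 0.452) and 0.04 (adjusted p = 0.903 by edgeR).

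Genes that act on promoter choice in the arrays were well counted. Of 21 genes for chromatin looping, DNA methylation and silencing, all were tested and 3 rose and 2 fell in suspension, beside 21.2% of all genes tested. The DNA methyltransferase gene DNMT3B rose by 0.21 on the log2 scale (SE 0.061, adjusted p = 0.0266 by edgeR) and SMCHD1, a chromatin silencing factor, by 0.14 (SE 0.044, adjusted p = 0.0366). TRIM28 rose by 0.12 (SE 0.037, adjusted p = 0.043 by edgeR). It passed under 9 of 17 alternatives, and in the rest its adjusted p was 0.0534 to 0.253 by edgeR. WIZ, a partner of the G9a methyltransferase, fell by 0.15 (SE 0.036, adjusted p = 0.0117) and EHMT2, which encodes G9a, fell by 0.10 (SE 0.032, adjusted p = 0.0390). CTCF, which binds the promoters, had a log2 fold change of 0.01 (adjusted p = 0.901). Adjusted p by edgeR rose above 0.05 for DNMT3B without attached replicate 1 or 3 or suspended vehicle replicate 1 or 2 (0.0649 to 0.0918), for SMCHD1 without attached replicate 1 or 2 or suspended vehicle replicate 2 or 3 (0.0922 to 0.119), for WIZ without suspended vehicle replicate 2 (0.0564), and for EHMT2 without any 1 library other than suspended vehicle replicate 1 (0.0508 to 0.152). Beyond the leave-outs, adjusted p was 0.0666 for DNMT3B and 0.0817 for SMCHD1 with DESeq2, and 0.159 and 0.628 with counts rebuilt from TPM. SMCHD1 also had 0.0558 without the filter and 0.0594 with the 6 libraries of the comparison alone (edgeR), and EHMT2 0.0965 without the filter and 0.0525 with the replicate number as a block. With AT-0174 none of the 21 passed by edgeR, DESeq2 or limma-voom, and 2 had an unadjusted p under 0.05.

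Of 13 genes for cleavage of these proteins and signaling below them, including the ADAM10 and gamma-secretase genes, all were tested and RET alone changed in suspension, where it fell by 0.31 on the log2 scale (SE 0.078, adjusted p = 0.0145 by edgeR), beside 21.2% of all genes tested that passed in either direction. RET encodes a receptor tyrosine kinase that forms complexes with protocadherins in neurons, and its adjusted p was 0.0513 without attached replicate 1, 0.0533 without attached replicate 3 and 0.0682 without suspended vehicle replicate 2, and 0.183 with counts rebuilt from TPM. Of 13 listed genes beside the arrays on chromosome 5, 11 were tested, and 5 fell and 0 rose in suspension, beside 1677 of 15528 genes that fell and 1620 that rose. RELL2 fell by 0.25 (SE 0.051, adjusted p = 0.00558) and ZMAT2 by 0.19 (SE 0.039, adjusted p = 0.00624 by edgeR), and HARS2, FCHSD1 and IK were the other 3. IK had an adjusted p of 0.0591 to 0.109 by edgeR without attached replicate 2 or 3 or suspended vehicle replicate 2 or 3, and 0.105 with counts rebuilt from TPM. With AT-0174 none of the 13 signaling genes and none of the 11 neighbors passed by edgeR, DESeq2 or limma-voom, and 1 of each list had an unadjusted p under 0.05.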

How the data were processed

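MDA-MB-453 libraries were analyzed from files deposited by the authors. Per the study's methods, reads were trimmed (Cutadapt 3.4, Trim Galore 0.6.7), aligned with STAR 2.7.9a to GRCh38 and quantified with Salmon 1.10.1. The authors deposited a table of estimated counts per gene and, for each library, transcript lengths, TPM and estimated counts. Gene counts equaled the sums over 236920 transcripts. Salmon divides reads from shared exons among transcripts by likelihood, so single-gene values of the alpha and gamma arrays carry an error that depth does not show. The kit is named differently in the labels and the methods.

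Here counts were rounded and tested with edgeR 4.0.16 (quasi-likelihood, TMM, filterByExpr, all 9 libraries in 1 fit, Benjamini-Hochberg over all genes), and checked on simulated data. Intervals are 95% intervals of the fit. Alternatives used DESeq2 1.42.0 and limma 3.58.1. Array sums and transcripts had no test. Coordinates and transcript classes came from GENCODE 44 (131 of 132 member transcripts), promoters from RefSeq. Named members are those that passed and the 3 with the highest CPM in each array, others by extremes of their range, by groups that did not overlap, or by transcripts that stood out after values were seen. The members and lists were chosen with earlier results of these data known. With group means removed, same-numbered libraries had correlations of -0.096 to 0.118, inside the -0.198 to 0.168 of differently numbered ones. The numbers thus gave no sign of pairing, though this cannot show whether cultures were set up in parallel.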

Additional observations from a re-analysis of the deposited data

How the results depend on the processing

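The count of members called in suspension was 0 and became 3 with no filter on low counts (PCDHA12, PCDHGC3 and PCDHGC4), and 0 to 1 when single libraries were left out (PCDHA12 without suspended vehicle replicate 1). It was 0 under the other alternatives, with the replicate number as a block included. With AT-0174 the count was 1 and became 0 with the replicate block (PCDHA13, adjusted p = 0.0732 by edgeR) and with counts rebuilt from TPM, and 0 to 1 when single libraries were left out (without suspended vehicle replicate 2 the member called was PCDHA4). PCDHA13 passed under 8 of 17 alternatives, with adjusted p from 0.000327 to 0.977, and its log2 fold change was below 0 in all 17. On summed TPM the log2 differences in suspension were 0.29 for beta and 0.149 for gamma, and with AT-0174 -0.26 for beta and -0.181 for gamma. The cause was not tested. All other array sums stayed within 1 SD of their value. Small counts limit the members: 26 of 54 could not be tested.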
